A study of Mus musculus with 18 samples.

Results

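The 8 genes of the epidermal lipid barrier described here, Alox12b, Aloxe3, Alox12e, Cers3, Cyp4f39, Abca12, Elovl4 and Acer1, were followed through reprogramming of mouse fibroblasts with a high-KLF4 or a low-KLF4 cassette. They were chosen by name, as skin lipid barrier genes with a probe that names only that gene. All 8 had exactly 1 such probe, of 19938 genes with a probe of their own. The choice was made with earlier results of these data known, so the counts of members beside all probes are no independent test. On day 8, 4 of the 8 were higher in high-KLF4 than in low-KLF4 cells (Alox12b, Cers3, Abca12 and Cyp4f39), where 2.71% of all probes tested were. Lower was 1 of the 8 (Alox12e, near the low end of the array), where 1.29% of all probes were.

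The series held 18 Affymetrix Mouse Gene 1.0 ST arrays in 12 groups, of which 6 groups had 2 arrays and 6 had 1 array. High-KLF4 cells carried OK+9MS, in which the Klf4 sequence is the longer form, and low-KLF4 cells carried OKMS, with the shorter form. Both cassettes encode OCT3/4, KLF4, c-MYC and SOX2 with an mCherry reporter, were delivered by a piggyBac transposon and were driven by a doxycycline-responsive promoter in ROSA-rtTA Nanog-GFP embryonic fibroblasts kept in ES cell medium with doxycycline. Cells sorted as mCherry+, which report the transgene and not a cell type, were taken on days 2, 4, 8 and 18. Day 8 had 2 arrays of each cassette and every other day 1. In the paper, cultures were passaged on day 8, and full reprogramming was scored by Nanog-GFP with loss of mCherry. The mCherry+ cells of day 18 had thus kept the reporter, and need not stand for all successors of the day 8 cells. High-KLF4 and low-KLF4 induced pluripotent stem cells (iPSCs) were 2 clones each, 1 array a clone. Keratinocytes came from newborn pups at postnatal day 2 and were cultured for about a week before RNA was taken (2 arrays), and mouse embryonic stem cells (mESCs) of the Nanog-GFP line 1A2 gave 2 arrays. Array medians lay between 139.4 and 161.6, and no array carried a detection call, so a low signal cannot be told from absence.

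The barrier of the outer epidermis is made of ceramides with very long acyl chains, packed between dead cells and bound to their protein envelope. Elovl4 lengthens the fatty acid, Cyp4f39 (the mouse counterpart of human CYP4F22) hydroxylates its far end, Cers3 joins it to the sphingoid base, and Abca12 loads the lipid into lamellar granules. Alox12b (12R-lipoxygenase) and then Aloxe3 oxidise the linoleate carried by the finished acylceramide, Alox12e is an epidermal 12-lipoxygenase of the mouse, and Acer1 is a ceramidase that cleaves ceramides in the upper epidermis.

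Of the 8 members, 7 had a window in the RefSeq table of start sites (GRCm38.p6), and Aloxe3 was not in it. The 250 bases before the listed start are shown for the 3 members that were higher in high-KLF4 cells and also held one of the motifs searched, each 5′ to 3′ on the strand of its gene: Alox12b at chr11:69156822-69157071 (plus strand), Cers3 at chr7:66743254-66743503 (plus strand) and Abca12 at chr1:71414911-71415160 (minus strand). Capitals mark CACCC, the core letters that KLF factors are known to bind, or CACCTG, the E-box of SNAIL and ZEB factors, on either strand (GGGTG and CAGGTG on the opposite strand).
Alox12b: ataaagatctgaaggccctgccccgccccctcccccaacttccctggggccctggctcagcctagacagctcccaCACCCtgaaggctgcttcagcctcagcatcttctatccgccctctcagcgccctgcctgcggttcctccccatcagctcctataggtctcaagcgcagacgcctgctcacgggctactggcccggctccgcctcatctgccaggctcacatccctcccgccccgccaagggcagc
Cers3: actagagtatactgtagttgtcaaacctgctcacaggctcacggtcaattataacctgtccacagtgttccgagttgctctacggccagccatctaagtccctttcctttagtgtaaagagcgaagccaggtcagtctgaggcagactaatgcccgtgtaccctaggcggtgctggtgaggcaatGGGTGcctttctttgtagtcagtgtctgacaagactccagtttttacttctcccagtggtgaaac
Abca12: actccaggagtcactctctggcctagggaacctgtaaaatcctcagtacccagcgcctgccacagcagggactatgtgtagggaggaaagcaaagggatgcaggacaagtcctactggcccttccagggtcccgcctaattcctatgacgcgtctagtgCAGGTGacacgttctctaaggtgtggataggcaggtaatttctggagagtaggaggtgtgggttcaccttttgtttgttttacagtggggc
The marked letters began 175 bases before the start of Alox12b, 65 before the listed start of Cers3 and 91 before the start of Abca12. The listed start of Cers3 is an internal one, 10.4 kb inside the gene as the RefSeq gene table bounds it, whereas those of Alox12b and Abca12 are the ends of their genes. CACCC stood in 4 of the 7 windows (Alox12b, Alox12e, Cers3 and Acer1), against 52% of all 32851 windows of this length, and CACCTG in 2 (Abca12 and Elovl4), against 17.2%. The TATA box TATAAA (12.4% of all windows), the Grainyhead motif AACNGGTT (1.79%) and the OVOL motif CCGTTA (2.18%) were in 0 of the 7. Cyp4f39, the fourth member that was higher, held none of the letters searched, and Alox12e, which was lower, held CACCC. The letters searched thus did not divide the members by direction. Only exact matches to these letters were searched, so a window without them is not shown to lack a binding site.

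Alox12b had the largest difference between the cassettes among the members. Its signals in high-KLF4 mCherry+ cells were 958.6 at day 2, 2867 at day 4, 2528 and 7552 at day 8, then 2125 at day 18. In low-KLF4 cells Alox12b measured 116.0, 76.1, 127.7 and 159.8, and 152.2 on the same days. The cassettes did not overlap on any day, and the low-KLF4 arrays lay in or below the narrow range of the pluripotent cells, with Alox12b at 138.6 to 147.5 in iPSC clones and 131.9 to 154.8 over iPSCs and mESCs together, the array of day 8 at 159.8 being just above it. Keratinocytes had 318.6 and 261.5, below every high-KLF4 array of days 2 to 18.

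Cers3 and Abca12 showed another order, with keratinocytes highest. Cers3 signals in high-KLF4 cells were 152.4 at day 2, 425.2 at day 4, 546.3 and 1108 at day 8, then 188.3 at day 18, and in low-KLF4 cells 70.7, 68.8, 69.3 and 97.8, and 65.6. Abca12 signals in high-KLF4 cells were 77.0, 224.5, 354.5 and 787.9, and 99.4 on these days, against 64.4, 63.0, 64.5 and 81.2, and 62.4 in low-KLF4 cells. For Cers3 the cassettes did not overlap, while for Abca12 the high-KLF4 array of day 2 lay below the higher low-KLF4 array of day 8. In keratinocytes Cers3 reached 3078 and 3914 and Abca12 5013 and 4803, while iPSCs and mESCs stayed at 64.4 to 83.0 for Cers3 and 50.0 to 58.3 for Abca12. Both genes thus had their highest mCherry+ signal on day 8, and were lower in the cells that were still mCherry+ on day 18.

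Cyp4f39 was high with both cassettes on days 2, 4 and 8. Its signals in high-KLF4 cells were 3573 at day 2, 4761 at day 4, 4914 and 6793 at day 8, then 1575 at day 18, against 1190, 2568, 1289 and 1559, and 118.6 in low-KLF4 cells. Every mCherry+ array but the low-KLF4 one of day 18 was above all iPSC and mESC arrays, which had Cyp4f39 at 136.4 to 170.7, and keratinocytes lay between at 511.3 and 971.1. On day 18 the high-KLF4 array was thus above, and the low-KLF4 array below, every iPSC and mESC array.

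Aloxe3 was more variable. High-KLF4 cells had 394.1, 422.6, 258.1 and 792.2, and 167.6 on days 2, 4, 8 and 18, against 187.7, 133.9, 101.8 and 191.3, and 134.2 in low-KLF4 cells. On each day the high-KLF4 signal of Aloxe3 was the higher one, but the day 18 array was inside the range of the low-KLF4 arrays and of the iPSCs. Keratinocytes had 854.9 and 538.5.

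Elovl4 was divided by day more than by cassette. It measured 1150 and 1017 in high-KLF4 cells on days 2 and 4, against 1355 and 1642 in low-KLF4 cells. On days 8 and 18 Elovl4 measured 379.5 and 631.2, and 422.4 in high-KLF4 cells, against 628.4 and 785.8, and 266.8 in low-KLF4 cells. All 4 arrays of days 2 and 4 (1017 to 1642) were thus above all 6 arrays of days 8 and 18 (266.8 to 785.8), a description with no test. iPSC clones had 803.2 to 971.6, mESCs 750.0 and 741.1, and keratinocytes 5083 and 5714.

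Alox12e and Acer1 stayed near the low end of the array. Alox12e lay between 63.5 and 84.6 on all arrays but 3, the low-KLF4 ones of day 8 (136.7 and 131.0) and day 18 (92.6). The high-KLF4 arrays of day 8 had Alox12e at 74.3 and 66.6, inside the range of the iPSCs and mESCs (65.6 to 78.4). Acer1 was at 61.6 to 81.6 in high-KLF4 and 64.3 to 79.8 in low-KLF4 mCherry+ cells, at 78.6 to 101.7 in iPSCs and mESCs, and at 106.5 and 134.5 in keratinocytes, which were the highest arrays.

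**Figure D1:**
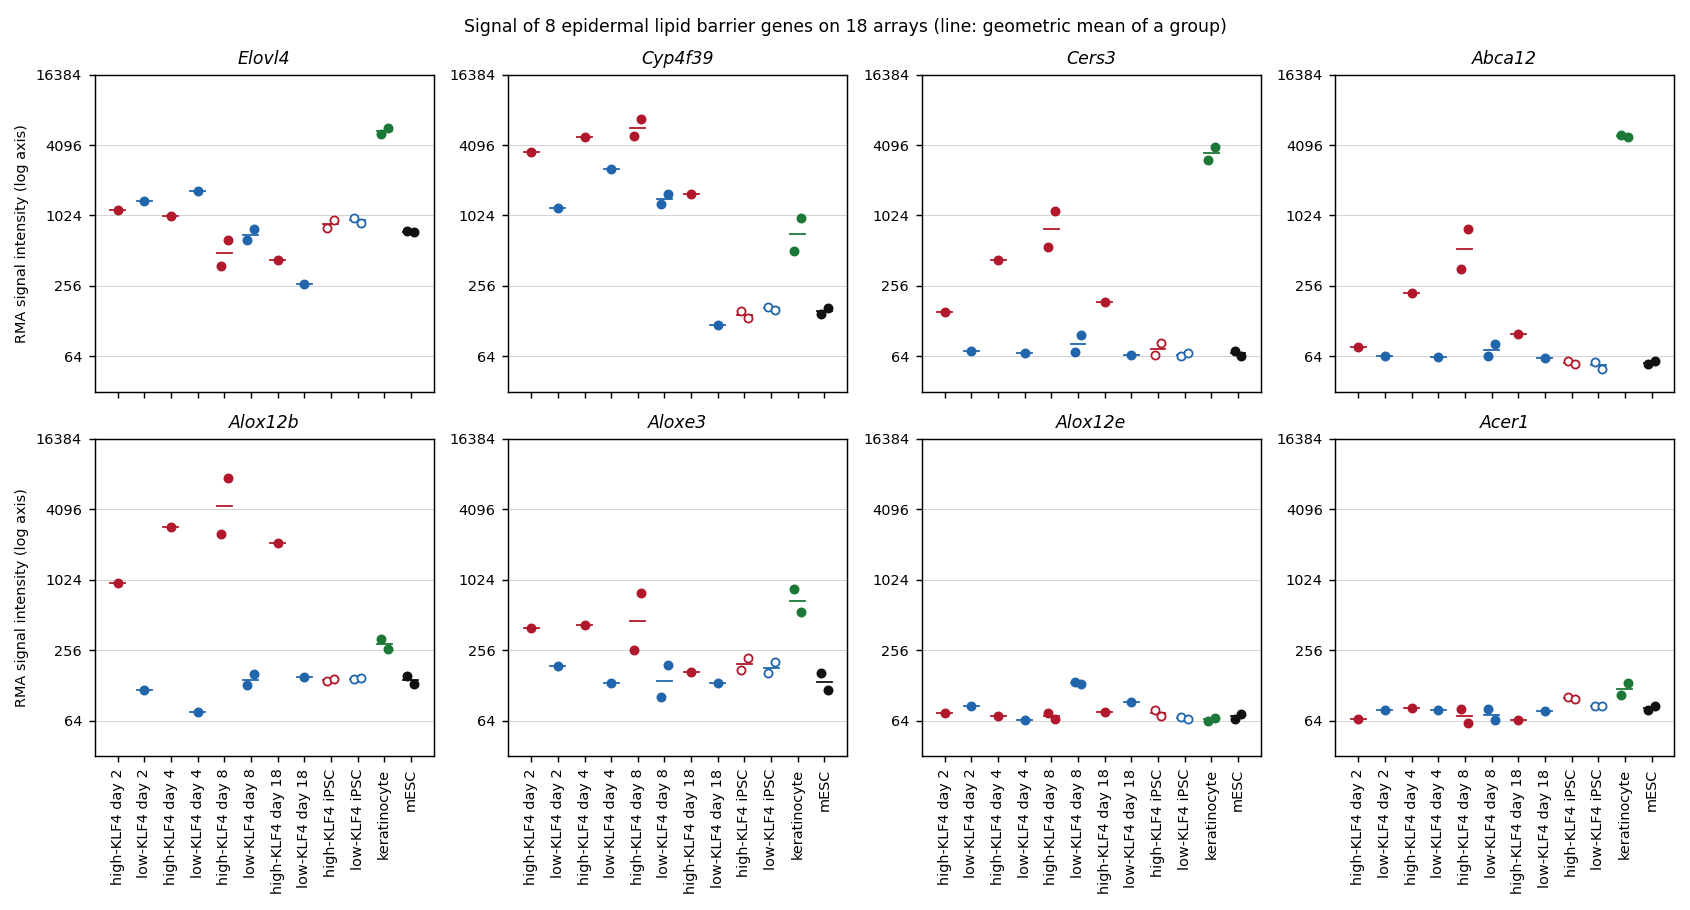
RMA signal intensity (log axis) of the 8 members on each of the 18 arrays, by group; a point is 1 array, a line is the geometric mean of a group, and open points are iPSC clones. Alox12b is at 958.6 or more only in high-KLF4 mCherry+ cells, whereas Cers3, Abca12 and Elovl4 are highest in keratinocytes, at 3078 to 5714.

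The first comparison asked how the cassettes differed on day 8, the only day with 2 mCherry+ arrays of each. With limma over all 12 groups and Benjamini-Hochberg adjustment over 23410 probes, 4 of 8 members were higher in high-KLF4 cells, where 2.71% of all probes were, and 1 was lower, where 1.29% were. The median log2 difference was 1.86 over the members and -0.03 over all probes. The rise of Alox12b was 4.93 in log2 units (SE 0.41, limma adjusted p = 0.000719, n = 2 each), or 30.6-fold. Cers3 rose by 3.24 (SE 0.31, limma adjusted p = 0.00137), Abca12 by 2.87 (SE 0.31, limma adjusted p = 0.00211) and Cyp4f39 by 2.03 (SE 0.28, limma adjusted p = 0.00685). Alox12e was lower by 0.93 (SE 0.09, limma adjusted p = 0.00168), at 74.3 and 66.6 against raised low-KLF4 signals of 136.7 and 131.0, all below the array medians. These members span ω-hydroxylation, ceramide synthesis, granule loading and the first oxidation.

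The other 3 members did not pass. Aloxe3 had a difference of 1.70 (95% interval 0.51 to 2.88, limma adjusted p = 0.129), Elovl4 of -0.52 (-1.03 to -0.02, limma adjusted p = 0.29) and Acer1 of -0.03 (-0.40 to 0.34, limma adjusted p = 0.965). Aloxe3 lies 7.96 kb from Alox12b on chromosome 11, and its interval allows a difference of 2-fold or more. Fitted on the 4 day 8 arrays alone, no member passed (limma adjusted p of 0.343 to 0.417 for the 5 that had). The difference of Aloxe3 passed without the high-KLF4 day 8 array numbered 1 (2.51, limma adjusted p = 0.0119), and that of Elovl4 without the array numbered 2 (-0.89, limma adjusted p = 0.0409).

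**Figure D2:**
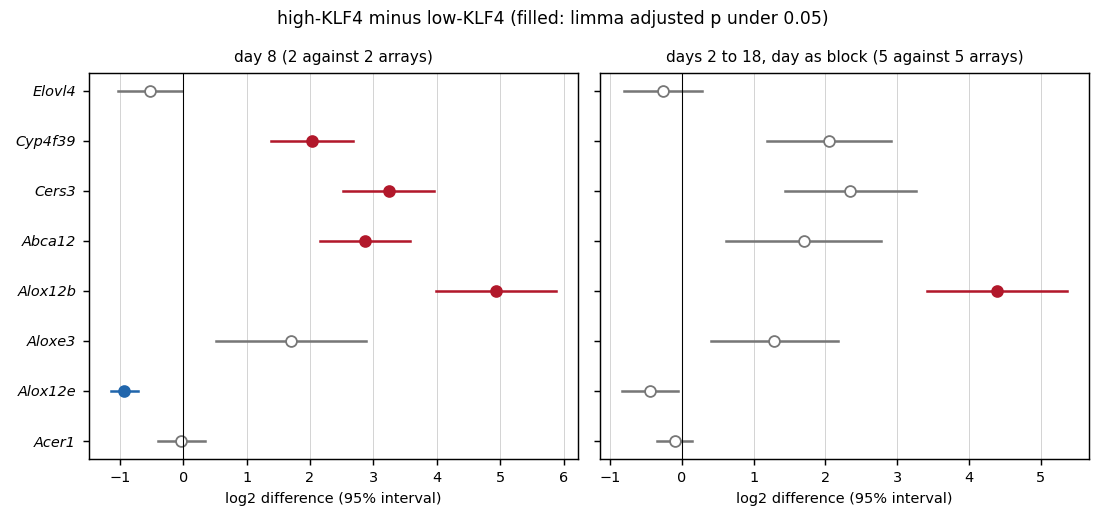
Log2 difference of high-KLF4 minus low-KLF4 with its 95% interval for each member, on day 8 (left) and over days 2 to 18 with day as a block (right); filled points passed at a limma adjusted p under 0.05. On day 8, Cyp4f39, Cers3, Abca12 and Alox12b are filled above 0 and Alox12e below it, and over the days only Alox12b is filled.

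The 2 arrays of a cassette on day 8 were not alike. In high-KLF4 cells 6 of 8 members had the higher signal on the array numbered 2, by 2.99-fold for Alox12b, 3.07-fold for Aloxe3, 2.22-fold for Abca12 and 2.03-fold for Cers3. In low-KLF4 cells the same 6 of 8 did, by 1.21-fold to 1.88-fold. Fibroblast markers moved the other way on the same arrays: all 11 were lower on the array numbered 2 with either cassette, by a median of -1.97 log2 units for high-KLF4 and -2.10 for low-KLF4 cells, and the sum of their signals was 14575 (numbered 2) and 37841 (numbered 1) with the high-KLF4 cassette, and 8768 and 38733 with the low-KLF4 one. In such bulk samples, fewer cells of a type and less RNA per cell cannot be told apart. Between the cassettes the fibroblast markers had a median difference of 0.04, with 0 of 11 called. By 2-fold or more, 2 of the 11 were higher in high-KLF4 cells and 0 lower. With duplicates this far apart only large differences could be called, so equal fibroblast signal is not shown. On the arrays numbered 1 alone the difference was 4.31 for Alox12b, 2.98 for Cers3, 2.46 for Abca12 and 1.93 for Cyp4f39, and on those numbered 2 alone 5.56, 3.50, 3.28 and 2.12, all 8 past the threshold in a limma fit that took the spread from the other groups.

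The labels were checked where the arrays allowed it. The cassette names refer to KLF4 protein, which the paper describes as higher with the longer form, and RNA need not follow it. The single Klf4 probe, which reads RNA, was lower in high-KLF4 cells on every day. It had 819.9, 658.3, 792.7 and 905.5, and 831.0 in high-KLF4 cells on days 2, 4, 8 and 18. In low-KLF4 cells it had 1027, 762.6, 1038 and 973.6, and 977.9. Klf4 was not called on day 8 (-0.25, limma adjusted p = 0.68) or over days 2 to 18 (-0.25, limma adjusted p = 0.133), and since no source used here says whether this probe reads the transgene, it does not check the labels. In keratinocytes 10 of 12 keratinocyte and 9 of 11 granular layer markers were called higher than in mESCs (17.7% of all probes were). Of the 12 keratinocyte markers 9 were higher by 2-fold or more. Those below 2-fold included Krt1 and Krt10, keratins of the differentiating layers. All 10 pluripotency markers were lower, as were 3 of 11 fibroblast, 7 of 8 immune and 3 of 6 endothelial markers (20.4% of all probes were). The fibroblast count is thus little above the share of all probes. On day 8, 4 of 12 keratinocyte and 3 of 11 granular layer markers were called higher in high-KLF4 cells (2.71% of all probes were). Called higher too were 1 of 6 endothelial and 0 of 8 immune markers. Of 10 pluripotency markers, 3 were higher and 2 lower (1.29% of all probes were lower). The part of these cells in the members' signals was not tested.

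On the other days each cassette had 1 array, so that differences have no replicate check. On day 2, high-KLF4 cells had 4 of 8 members higher by 2-fold or more (1.00% of all probes were) and 0 lower by as much (0.0641%). On day 4 it was 4 higher (1.64%) and 0 lower (0.641%), and on day 18 it was 3 higher (0.867%) and 0 lower (0.0940%). The sets differed by day. Alox12b and Cers3 were in each of them, with log2 differences of 3.05, 5.24 and 3.80 for Alox12b and 1.11, 2.63 and 1.52 for Cers3 on days 2, 4 and 18. Cyp4f39 passed 2-fold on days 2 (1.59) and 18 (3.73) but not on day 4 (0.89), where its low-KLF4 signal was highest. Abca12 passed on day 4 (1.83) and not on days 2 (0.26) and 18 (0.67), and Aloxe3 on days 2 (1.07) and 4 (1.66) but not on day 18 (0.32).

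**Figure D3:**
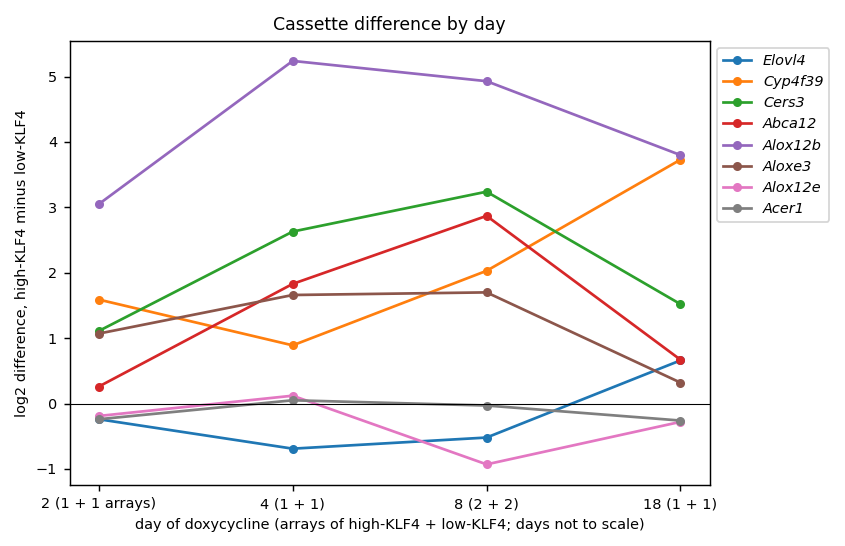
Log2 difference of high-KLF4 minus low-KLF4 for each member by day of doxycycline, with days 2, 4 and 18 from 1 array of each cassette and day 8 from the means of 2. The difference of Alox12b stays at 3.05 or more, that of Abca12 is 2.87 on day 8 and under 1 on days 2 and 18, and that of Cyp4f39 is largest on day 18, at 3.73.

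Over days 2 to 18, with day as a block and 5 arrays of each cassette, 1 of the 8 members, Alox12b, was called higher (0.158% of all probes were) and 0 lower (0.00427%). Its rise was 4.39 in log2 units (SE 0.42, limma adjusted p = 0.0293). Cers3 had 2.35 (limma adjusted p = 0.088), Cyp4f39 2.05 (limma adjusted p = 0.0943), Abca12 1.70 (limma adjusted p = 0.164) and Aloxe3 1.29 (limma adjusted p = 0.187), and Alox12e had -0.44 (limma adjusted p = 0.271). The call of Alox12b was lost without any 1 of 7 arrays, with differences of 4.18 to 4.73 and limma adjusted p of 0.0506 to 0.167. These were the low-KLF4 arrays of days 2, 4 and 8 (both) and the high-KLF4 ones of days 2, 4 and 8 (the one numbered 1). On days 2 and 4, leaving out either array gives the same fit, since the other then has no partner on its day.

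The second comparison set the day 8 cells against the iPSC clones of the same cassette. In high-KLF4 cells 4 of 8 members were higher on day 8 (13.5% of all probes were) and 2 were lower (14.7%). Cyp4f39 rose by 5.31 (SE 0.28, limma adjusted p = 8.91e-06), Alox12b by 4.95 (SE 0.41, limma adjusted p = 9.68e-05), Cers3 by 3.40 and Abca12 by 3.23. Elovl4 fell by 0.83 (limma adjusted p = 0.0242) and Acer1 fell by 0.50 (limma adjusted p = 0.0495), but neither was called without either 1 of the iPSC clones, Elovl4 was not called without the day 8 array numbered 1, and Acer1 was not without the array numbered 2. In low-KLF4 cells only 2 of 8 were higher (8.43% of all probes), Cyp4f39 by 3.11 (SE 0.28) and Alox12e by 1.00 (SE 0.09), and 0 were lower (10.8%). Alox12b was at -0.03 (95% interval -0.98 to 0.91) and Cers3 at 0.31 (-0.40 to 1.03) there. In high-KLF4 day 8 cells against their clones, 8 of 12 keratinocyte, 6 of 11 granular layer and 2 of 11 fibroblast markers were also higher and 10 of 10 pluripotency markers lower, and in low-KLF4 cells 6 of 12, 1 of 11 and 1 of 11 were higher and 9 of 10 lower.

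The cassette difference itself was then compared between day 8 and the clones, as an interaction. It was larger on day 8 for 3 of 8 members (0.671% of all probes), Alox12b by 4.98 (SE 0.58, limma adjusted p = 0.00957), Cers3 by 3.08 (SE 0.44, limma adjusted p = 0.0207) and Abca12 by 2.80 (SE 0.44, limma adjusted p = 0.0292). It was lower for 1 (0.154%), Alox12e, by -1.08 (SE 0.13, limma adjusted p = 0.0121), and Cyp4f39 had 2.20 (limma adjusted p = 0.053). None of these was called when any 1 of the 4 clones was left out. Between high-KLF4 and low-KLF4 clones, 0 of 8 members and 0 of 23410 probes were called by limma (0% each way), and before adjustment 0 members and 224 probes had p under 0.05. Set against mESCs, iPSCs had 0 of 8 members called by limma, also before adjustment, where 2.02% of all probes were higher and 2.28% lower after it, and the intervals of Alox12b (-0.81 to 0.83) and Cers3 (-0.59 to 0.66) stayed within 1 log2 unit.

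The third comparison used cultured keratinocytes, whereas these genes are known to act in the upper layers of the epidermis. In these cultures Krt1 and Krt10 differed from mESCs by less than 2-fold, although 9 of 11 granular layer markers were called higher. How far the cultures stand for the barrier-forming layers was not tested. Against mESCs, keratinocytes had 6 of 8 members higher (17.7% of all probes) and 0 lower (20.4%). Abca12 rose by 6.44 (SE 0.31, limma adjusted p = 1.78e-06), Cers3 by 5.67 (SE 0.31), Elovl4 by 2.85 (SE 0.22), Aloxe3 by 2.30 (SE 0.52), Cyp4f39 by 2.17 (SE 0.28) and Acer1 by 0.54 (SE 0.16, limma adjusted p = 0.0283). Alox12b had 1.01 (SE 0.41, limma adjusted p = 0.0903) and Alox12e -0.09. Aloxe3 was not called without keratinocyte array 1 or mESC array 2, nor Acer1 without keratinocyte array 2 or either mESC array.

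High-KLF4 day 8 cells against keratinocytes had 2 members higher (13.1% of all probes) and 4 lower (11.4%). Alox12b rose by 3.92 (SE 0.41, limma adjusted p = 0.000294) and Cyp4f39 by 3.04 (SE 0.28, limma adjusted p = 0.000142). Elovl4 fell by 3.46 (SE 0.22), Abca12 by 3.21 (SE 0.31), Cers3 by 2.16 (SE 0.31) and Acer1 by 0.77 (SE 0.16, limma adjusted p = 0.0093), which was not called without keratinocyte array 2. Aloxe3 differed by -0.59 (95% interval -1.77 to 0.60). In the same comparison 8 of 12 keratinocyte markers were lower, and of 11 granular layer markers 9 were lower and 1 higher, while 10 of 11 fibroblast markers (median 3.86) and 8 of 10 pluripotency markers were higher. The members that were higher on day 8 were thus on both sides of these cultured keratinocytes, Alox12b and Cyp4f39 above them and Cers3 and Abca12 below.

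**Figure D4:**
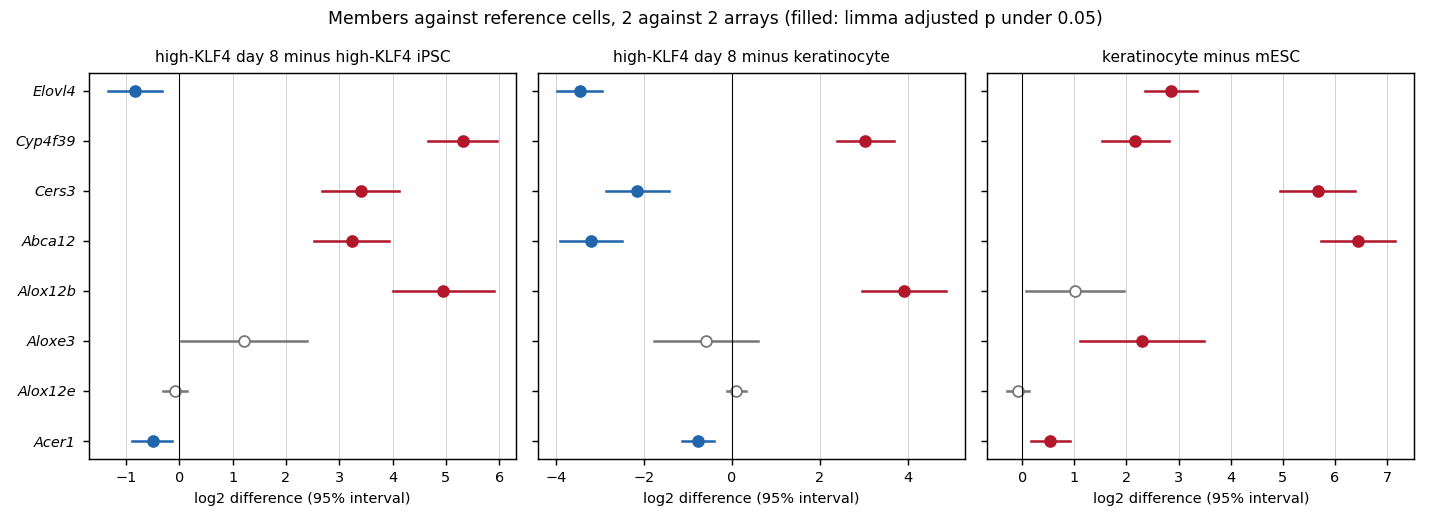
Log2 difference with its 95% interval for each member in high-KLF4 day 8 cells minus high-KLF4 iPSCs (left), in high-KLF4 day 8 cells minus keratinocytes (middle) and in keratinocytes minus mESCs (right), 2 arrays each; filled points passed at a limma adjusted p under 0.05. Against keratinocytes, Alox12b (3.92) and Cyp4f39 (3.04) are to the right of 0, and Elovl4 (-3.46), Abca12 (-3.21) and Cers3 (-2.16) to the left.

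Other genes of the pathway were read from 7 lists with 65 measured genes. On day 8, 4 of the 65 were higher in high-KLF4 cells and 2 lower, beside the 2.71% and 1.29% of all probes given above. In the list of acylceramide and envelope lipid steps, 2 of 11 were higher: Sult2b1, which makes cholesterol sulfate, by 2.87 (limma adjusted p = 0.00619; signals of 726.6 and 2055 against 154.1 and 182.0) and Lipm, an epidermal lipase, by 1.37 (limma adjusted p = 0.0255; 335.8 and 396.6 against 106.7 and 186.3). Tgm1, the transglutaminase that cross-links the envelope, had 2.00 but did not pass (limma adjusted p = 0.0761; 2303 and 4657 against 438.5 and 1524), and the lowest of the list was Lipn at -0.23.

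Among 12 fatty acid elongases and desaturases, Elovl1 rose by 0.73 (limma adjusted p = 0.0159), Elovl7 had the largest difference at 1.39 (limma adjusted p = 0.0787) and Fads1 the lowest at -0.31. Among 10 other genes of ceramide synthesis, Degs1, the desaturase that completes ceramide, rose by 0.56 (limma adjusted p = 0.0455) and the ceramide synthase gene Cers6 fell by 0.75 (limma adjusted p = 0.0315). Among 5 other lipoxygenase genes, Alox15 fell by 0.67 (limma adjusted p = 0.022) and Alox8, the 8-lipoxygenase, had 1.36 (limma adjusted p = 0.27), with signals of 150.1 and 655.3 in high-KLF4 cells, of which the lower is level with the higher low-KLF4 array (150.2). In the lists of ceramide processing (9 genes, Asah2 at 0.03 to Sgms2 at 0.99), other ABCA transporters (11 genes, Abca9 at -0.16 to Abca1 at 0.37) and other Cyp4f genes (7 genes, Cyp4f18 at -0.08 to Cyp4f13 at 0.32), 0 were called by limma. Over days 2 to 18, 0 of the 65 were called by limma, and 18 had p under 0.05 before adjustment, as had 15.9% of all probes.

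Keratinocytes against mESCs had 31 of the 65 pathway genes higher (17.7% of all probes) and 6 lower (20.4%), with 10 of the 31 among the 11 genes of the acylceramide list. Several of these were not called between the cassettes. Pnpla1, the transacylase that attaches linoleate to the ω-hydroxy ceramide, had day 8 signals of 63.9 and 85.5 in high-KLF4 cells, against no more than 68.8 with the low-KLF4 cassette, and 554.2 and 428.0 in keratinocytes. Sptlc3, a subunit of the first enzyme of sphingoid base synthesis, had 44.0 and 39.9 against 46.3 and 45.8, with 570.3 and 824.3 in keratinocytes. Degs2, which makes phytoceramides, had 97.8 and 109.2 against 93.1 and 95.5, with 1646 and 1692 in keratinocytes. High-KLF4 day 8 cells were lower than keratinocytes by -2.72 for Pnpla1, -4.03 for Sptlc3, -4.01 for Degs2, -4.17 for Nipal4, a membrane protein gene mutated in human ichthyosis, and -2.21 for Sdr9c7, which oxidises the products of the lipoxygenases (limma adjusted p of 1.49e-06 for Sptlc3 and 1.07e-05 for Pnpla1). The day 8 cassette differences of these 5 genes were between -0.21 (Nipal4) and 0.15 (Pnpla1), and the 5 were picked after their values were seen.

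**Figure D5:**
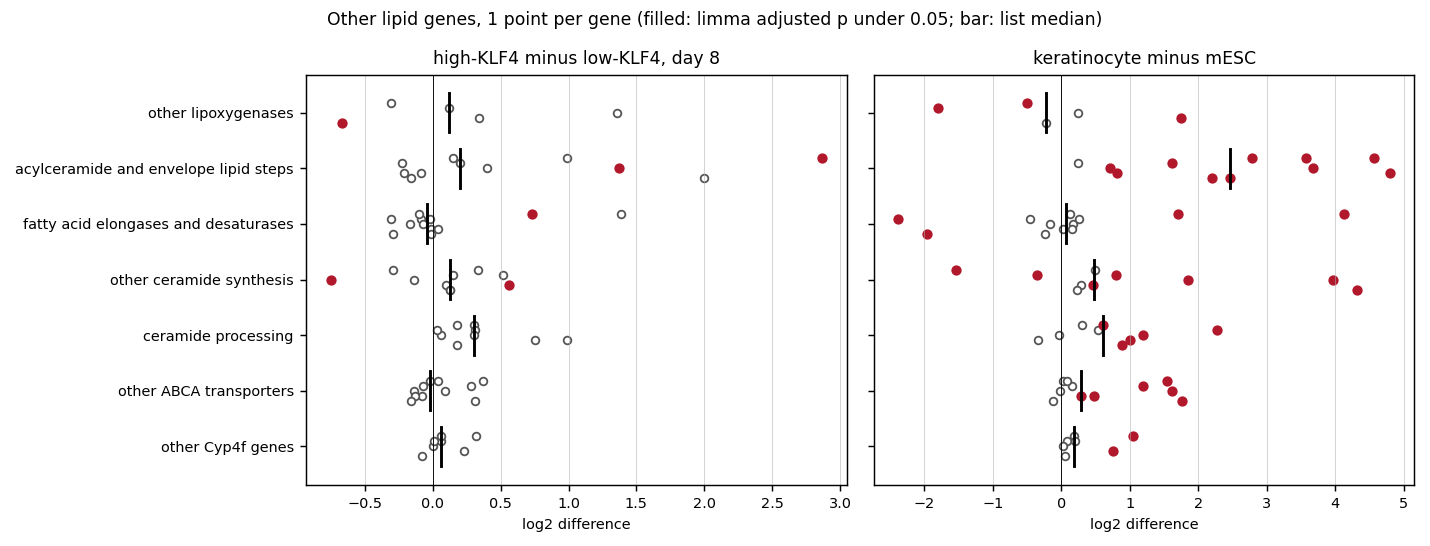
Log2 differences of the 65 other lipid genes in 7 lists, for high-KLF4 minus low-KLF4 cells on day 8 (left) and keratinocytes minus mESCs (right); a point is 1 gene, filled at a limma adjusted p under 0.05, and a bar is the median of a list. The acylceramide list has 2 of 11 filled on the left and 10 of 11 on the right.

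Position on the chromosome was read for the lipoxygenase genes. Alox12b (chr11:69157072-69169791, GRCm38.p6) lies between Aloxe3 and Alox8, and Alox12e (chr11:70315610-70322720) lies 1146 kb away beside Alox15. Of 23 other genes within 100 kb of Alox12b, 9 had a probe of their own. On day 8, 0 of the 9 were called by limma, where 2.71% of all probes were higher and 1.29% lower. Their differences ran from -0.37 (Tmem107) to 1.70 (Aloxe3), with Alox8 at 1.36, so 0 calls do not show an unchanged locus. Of 16 genes around Alox12e, 10 had a probe of their own and 1 was called, Alox15, which was lower like Alox12e. It lies 21.4 kb away, with 98.8 and 93.2 in high-KLF4 cells, against signals of 146.0 and 160.3 with the low-KLF4 cassette. Alox15 was also the gene whose 12 group means followed those of Alox12e most closely of 21789 single-symbol probes (Pearson r = 0.909). The 2 genes are paralogs, and probes of related genes can share signal.

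The genes most like the other members, by Pearson r of log2 signal over the same 12 group means, are given as a description. For Alox12b they were Klk14, a kallikrein protease of the skin (0.986), Nccrp1 (0.971) and the receptor tyrosine kinase gene Ret (0.951). For Cers3 they were the desmosomal cadherin gene Dsg3 (0.991), Serpinb5 (0.991) and Clic3 (0.980), and for Abca12 they were Mxd1 (0.986), Trim29 (0.986) and Atp6v1c2 (0.982). For Cyp4f39 they were Fah, an enzyme of tyrosine breakdown (0.977), Mettl24 (0.963) and Tubb2a (0.956), and for Aloxe3 Capn1 (0.965), Necap2 (0.960) and Endod1 (0.958). For Alox12e, Tac2 (0.899) and Csmd3 (0.886) came after Alox15. For Elovl4 they were Nras (0.955), Coq3 (0.944) and Prelid1 (0.944), and for Acer1 Paqr3 (0.912), Hectd3 (0.899) and Atg10 (0.896). Among the members themselves, Cers3 and Abca12 were most alike (0.98) and Alox12b and Abca12 were at 0.39, with the groups sharing arrays and normalization throughout.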

How the data were processed

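The deposited values were RMA intensities on a linear scale, which the authors computed for 28853 probes of 18 arrays, per the labels and the methods. RMA subtracts background, quantile-normalizes and summarises probes, so each value depends on all arrays of its run. log2 was taken here. Probe names came from platform annotation: 21789 probes name 1 gene, 1621 several and 5443 none, and 23410 with at least 1 name were tested. Start sites came from RefSeq (GRCm38.p6).

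Groups were fitted with limma 3.58.1 in R 4.3.3 over 12 groups (6 residual degrees of freedom); for days 2 to 18 the 10 mCherry+ arrays were fitted with day as a block. p-values were adjusted by Benjamini-Hochberg over all probes tested and called under 0.05. In the fit of 12 groups they measure a spread pooled over the 6 groups with 2 arrays, not only that of the 2 groups compared. For Alox12b the SD of log2 signal was 1.12 in high-KLF4 day 8 cells and 0.02 to 0.23 in the other groups of 2. Over days 2 to 18 the spread also holds changes of the cassette difference between days. With 2 arrays or 1 in a group, precision is limited by array number. Tested on simulated data for day 8 (23410 probes), the fit found 64 of 100 probes changed by a log2 of 1. It found 93 of 100 changed by a log2 of 2, and called 6 unchanged ones. The simulation gave each probe 1 spread in all groups and noise independent between arrays. The real day 8 duplicates shifted alike in both cassettes (r = 0.735) and could spread more, as for Alox12b, so these rates need not hold there.

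Text names all 8 members, pathway genes called between cassettes or at a list's ends, the 3 genes most like each member, and neighbours within 100 kb. Members and lists were chosen with earlier results of these data known. MEF, day 6 and TROP2-sorted samples were not analysed here.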

Additional observations from a re-analysis of the deposited data

Results flagged for a closer look

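For 4 members the cassette difference, high-KLF4 minus low-KLF4, was not the same on day 8 and in the iPSC clones by a test of the difference itself (limma interaction). The day 8 difference exceeded that of the clones by 4.98 on the log2 scale for Alox12b, 3.08 for Cers3 and 2.80 for Abca12, and was below it by -1.08 for Alox12e. In the clones these genes differed by -0.05 (Alox12b), 0.16 (Cers3), 0.07 (Abca12) and 0.15 (Alox12e) between the cassettes, and none of the 4 was called in the interaction when any 1 of the 4 clones was left out.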

How the results depend on the processing

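Every group had 2 arrays or 1, and signals near the low end (Alox12e, Acer1) cannot be told from absence. The same holds for Cers3 (64.4 to 97.8) and Abca12 (50.0 to 81.2) in low-KLF4 mCherry+, iPSC and mESC arrays. Their differences from those groups rest on this low baseline. A second quantile normalization, limma-trend and single-symbol probes alone kept every count of called members within 1.5 times of the value reported. Choosing the probe of highest variance could change nothing, since each member had 1 probe.

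On day 8, the 4 members higher became 0 and the 1 lower became 0 when the 4 day 8 arrays were fitted alone, and also with the methods' t-test after Benjamini-Hochberg (4 and 1 at an unadjusted 0.05). Without the dimmest 30% of probes, which drops Alox12e and Acer1, the lower count was 0 on day 8, 1 in high-KLF4 day 8 cells against their iPSCs and 0 in the interaction, and the higher count was 1 in low-KLF4 day 8 cells against their iPSCs. Leaving out single arrays gave 1 to 2 members lower on day 8, 0 to 1 lower in high-KLF4 day 8 cells against their iPSCs, 0 to 4 higher and 0 to 1 lower in the interaction, and 0 to 1 higher over days 2 to 18; an arm left with 1 array took its spread from the remaining groups. Acer1 on day 8, at -0.03, ranged from -0.22 to 0.15 without single arrays, with 0.15 without high-KLF4 replicate 2 and 0.13 without low-KLF4 replicate 1. The cause of these changes was not tested.

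Chosen after seeing the data, the day 8 arrays numbered 1 alone gave 2 members lower between the cassettes (Elovl4 beside Alox12e), 1 lower in high-KLF4 day 8 cells against their iPSCs and 1 lower (Elovl4) in low-KLF4 day 8 cells against theirs. Those numbered 2 alone gave 5 higher in the interaction and 0 higher over days 2 to 18.

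The replicate numbers of the day 8 arrays are shared between the cassettes only as numbers, although the difference between the arrays numbered 2 and 1 correlated at r = 0.735 over 23410 probes between them. With the replicate block, 5 members were higher on day 8 (Aloxe3 added, limma adjusted p = 0.00504) and 2 lower (Elovl4 added, limma adjusted p = 0.0264), and with the replicate block beside day over days 2 to 18, 4 were higher (Alox12b, Aloxe3, Cers3 and Cyp4f39). The replicate block left high-KLF4 day 8 cells against keratinocytes at 2 higher and 4 lower.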

Other observations

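Outside the lipid genes, Tgm3, a transglutaminase of the cornified envelope, was above keratinocytes in mCherry+ cells of both cassettes. Its signals in high-KLF4 cells were 749.1 at day 2, 1896 at day 4, 2085 and 6095 at day 8, then 255.7 at day 18, against 242.2, 612.5, 482.5 and 760.5, and 191.1 in low-KLF4 cells. Keratinocytes had Tgm3 at 132.3 and 127.2, below the array medians (139.4 to 161.6). Of the 11 granular layer markers it had the lowest difference of keratinocytes from mESCs, so these keratinocytes are a low baseline for it. It was picked from the granular layer markers after its values were seen.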
